A study of Mus musculus with 12 samples.

Results

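Genes for cadherins, protocadherins and other adhesion proteins that join neurons at synapses or along axons were compared in the striatum of SRF mutant and control mice. SRF, the serum response factor, is a transcription factor that binds CArG boxes in activity-regulated and cytoskeletal genes. The candidates were taken by symbol and comprised the numbered cadherins, the protocadherins, the neurexins, neuroligins 1 to 3, the Lrrtm, Slitrk, Flrt and netrin-G families, contactins 1 to 6, the Cntnap family, Ncam1, Ncam2, L1cam, Lsamp, Negr1 and Opcml. Probe sets annotated with exactly 1 of these symbols numbered 92 and stood for 65 genes. A gene was kept if its probe set had a log2 signal above 4 in at least 3 of the 12 arrays, and its brightest probe set then stood for it. This left 23 of the 65 genes, among 6651 genes tested on the array. No probe set with exactly 1 symbol matched a neurexin, an Flrt gene, Nlgn3, Cntn5, Lsamp, Negr1 or Opcml, so these genes are not analysed here. Of the Lrrtm, Slitrk and Cntnap families, only Lrrtm1, Lrrtm2, Slitrk1, Cntnap1, Cntnap2 and Cntnap4 had such a probe set.

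Each array held RNA from the striatum, nucleus accumbens included, of 1 female mouse aged 10 to 15 weeks. The 4 groups of 3 arrays were SRF mutants given saline, controls given saline, SRF mutants given 25 mg/kg cocaine and controls given 25 mg/kg cocaine, all killed 1 hour after the injection. Mutants and controls were littermates, and animals of all groups had been housed alone and handled for 5 days. How Srf was altered, in which cells and by what driver is not given in the labels. Groups follow the sample titles. The description field names other groups for most arrays, and the treatment text gives cocaine for every sample. Srf itself read 5.28, 5.27 and 5.01 in mutants after saline, against 7.11, 7.21 and 7.18 in controls after saline. After cocaine it read 5.33, 5.46 and 5.49 in mutants, against 7.13, 7.20 and 6.97 in controls. Every array titled mutant lay below every array titled control, with an averaged log2 change of −1.83 (SE 0.0662, adjusted p = 5.7e-09), so the titles were followed for genotype. Cocaine against saline, averaged over genotypes, changed Srf by 0.09 (limma, adjusted p = 0.701). Srf therefore cannot check which arrays were given cocaine, and the titles were taken as given for the injection. Over the tested probe sets, arrays of 1 group correlated at 0.986 to 0.993, and arrays of different groups at 0.976 to 0.990. The number of arrays limits the precision.

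Classical cadherins are calcium-dependent adhesion proteins that bind the same or a related cadherin on the facing cell and couple to actin through catenins. Type II cadherins, such as Cdh8, Cdh9, Cdh10 and Cdh11, mark subsets of neurons and help to sort and match their connections. Presynaptic neurexins bind several postsynaptic partners, among them neuroligins and Lrrtm proteins, and these pairs organise excitatory and inhibitory synapses. Contactins and the Cntnap proteins are immunoglobulin-type and neurexin-related molecules of axons, where Cntnap2 helps to cluster potassium channels beside the node of Ranvier.

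Of the 23 adhesion genes, 9 were lower and 0 were higher in mutants when both injections were averaged (limma, adjusted p under 0.05). Among all genes tested, 10.7% were called in either direction in this comparison and 5.92% were called lower. The 9 were Lrrtm1, Cdh9, Cntn6, Cdh4, Cdh11, Pcdh10, Cdh8, Cntn4 and Cntnap2. At an unadjusted p under 0.05, 12 were lower and 1, Cdh13 at its brighter probe set, was higher. Of all 6651 genes tested, 953 were lower and 709 higher at this unadjusted p. The median change was −0.14 over the 23 genes, against −0.02 over all genes tested. All 6 mutant arrays lay below all 6 control arrays for 6 of the 23 genes, Cdh4, Cdh9, Cntn4, Cntn6, Lrrtm1 and Pcdh10, where 3.7% of all genes tested did so. Cdh4 and Cntn6 exceeded the floor of 4 in control arrays only, so they could pass the filter only through the group where they were higher. Without them, 7 of 21 genes were called lower, and the arrays were separated for 4. In bulk tissue, fewer cells of a type and less RNA per cell cannot be told apart.

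Levels of some cell type markers moved with genotype. Of 12 cortical glutamatergic markers, 9 had a probe set and 3 passed the filter, and all 3 were lower in mutants, with log2 changes of −0.64 for Lamp5, −0.51 for Tle4 and −0.69 for Mef2c. Their summed linear signal was 557 to 560 in mutants after saline, against 828 to 885 in controls after saline, and 523 to 563 in mutants after cocaine, against 745 to 897 in controls after cocaine. The other 6 were under the floor in both genotypes, among them Tbr1 (means of 3.42 in mutants and 3.46 in controls), Neurod6 (2.79 and 2.80) and Neurod2 (1.55 and 1.54). Which cells gave the signals of Lamp5, Tle4 and Mef2c cannot be told in bulk tissue. Of 7 medium spiny neuron markers tested, 3 were higher, with log2 changes of 2.20 for Pdyn, 0.35 for Tac1 and 0.19 for Penk, and Rgs9 was lower (−0.33). At an unadjusted p under 0.05, 4 of the 7 were higher and 2 lower. These included the uncalled Pde10a (0.29, adjusted p = 0.150) and Ppp1r1b (−0.23, adjusted p = 0.0511). Of 9 astrocyte, 9 oligodendrocyte, 7 microglia, 5 endothelial, 4 interneuron, 2 thalamic or septal, 1 oligodendrocyte precursor and 1 ependymal gene tested, 0 were called by limma, and 2 astrocyte and 2 interneuron genes passed an unadjusted p under 0.05. The ependymal gene, Ttr, had a linear signal of 7.12 to 779 in controls after cocaine, against 7.20 to 8.78 in controls after saline. In mutants it ran from 8.44 to 47.5 after saline and from 8.29 to 59.5 after cocaine. With an SE of 1.00 for the averaged change of Ttr, its missing call does not show equal levels. The part of any of these cell type markers in the adhesion gene result was not tested.

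The largest changes were those of Lrrtm1 and Cdh9. RefSeq promoter windows, 250 bases before to 50 after a transcription start, are shown for both on assembly GRCm38.p6, 5′ to 3′ on the strand given, together with that of Cntn1, which held the sole CArG box found. Of the 23 genes, 14 had such windows (19 windows in all), 7 of them among the 9 genes called lower. Capitals mark the CArG box match. The windows are Lrrtm1 at chr6:77242227-77242526 on the plus strand, Cdh9 at chr15:16728665-16728964 on the plus strand and Cntn1 at chr15:92050915-92051214 on the plus strand.
Lrrtm1: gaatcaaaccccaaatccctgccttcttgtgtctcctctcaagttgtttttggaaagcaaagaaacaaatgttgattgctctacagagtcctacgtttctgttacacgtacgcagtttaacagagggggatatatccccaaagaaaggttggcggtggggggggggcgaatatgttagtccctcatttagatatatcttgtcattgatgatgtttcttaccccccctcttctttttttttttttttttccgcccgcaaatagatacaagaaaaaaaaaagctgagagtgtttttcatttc
Cdh9: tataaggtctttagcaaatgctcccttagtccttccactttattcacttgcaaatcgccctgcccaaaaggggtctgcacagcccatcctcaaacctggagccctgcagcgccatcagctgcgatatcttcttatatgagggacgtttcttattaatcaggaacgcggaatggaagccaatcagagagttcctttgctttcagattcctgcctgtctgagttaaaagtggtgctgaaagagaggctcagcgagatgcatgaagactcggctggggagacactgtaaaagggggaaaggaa
Cntn1: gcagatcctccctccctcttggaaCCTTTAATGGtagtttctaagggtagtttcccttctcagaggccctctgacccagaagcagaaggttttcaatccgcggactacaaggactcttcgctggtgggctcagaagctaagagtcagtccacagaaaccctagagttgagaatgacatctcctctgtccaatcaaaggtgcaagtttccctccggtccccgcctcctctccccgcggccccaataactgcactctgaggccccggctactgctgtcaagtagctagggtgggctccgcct
The CArG box, searched on both strands, was found in 1.63% of all 32851 RefSeq windows and in 1 of the 19 windows of these genes. That match, CCTTTAATGG, lay in the first Cntn1 window at bases 25 to 34, and Cntn1 was not called. The windows of the 7 genes called lower held 0 CArG boxes, so the window sequences of Lrrtm1 and Cdh9 are printed without capitals. The Srf window held 2. Other strings were searched on both strands too. The cAMP response element TGACGTCA was found in 1.79% of all windows and in 0 of the 19. The AP-1 string TGANTCA was found in 7.81% of all windows and in 1 of the 19, a window of Cntn4. The EGR string GCGTGGGCG was found in 0.612% of all windows and in 0 of the 19. The TATA string TATAAA was found in 13.6% of all windows and in 2 of the 19, 1 each of Cntn1 and Pcdh8. These matches describe letters in these windows and say nothing of binding. The GC content of the windows had a median of 48.7% for the genes called lower, 54.8% for the others and 52.7% over all windows.

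Lrrtm1 encodes a leucine-rich repeat protein of the postsynaptic membrane that binds neurexins and helps to build excitatory synapses. It had log2 signals of 5.85, 6.17 and 6.31 in mutants after saline, against 7.76, 7.26 and 7.05 in controls after saline. After cocaine the signals were 6.05, 5.97 and 5.99 in mutants, against 7.24, 7.14 and 7.20 in controls. Mutant and control arrays did not overlap, and the lowest control was 7.05 while the highest mutant was 6.31. The mean was 6.06 ± 0.163 in mutants and 7.27 ± 0.248 in controls (SD, n = 6 each), and Lrrtm1 was 2.32-fold lower in mutants (log2 change −1.22, SE 0.110, adjusted p = 1.63e-05). A second, dimmer Lrrtm1 probe set also fell, by 1.44 (adjusted p = 7.26e-06), with mutant signals of 3.55 to 3.93 that lie under the floor of 4. Lrrtm1 lies within the gene for the catenin Ctnna2 in the RefSeq annotation, and Ctnna2 had a log2 change of −0.01 (SE 0.0646, not called).

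Cdh9 is a type II cadherin known in mouse for specifying synapses in the hippocampus and retina. It read 5.06, 5.07 and 5.39 in mutants after saline, against 6.48, 6.45 and 6.26 in controls after saline. Under cocaine the signals were 5.15, 5.08 and 5.08 in mutants, against 6.49, 6.02 and 6.44 in controls. The arrays of the 2 genotypes were again fully separated. The mean was 5.14 ± 0.129 in mutants and 6.36 ± 0.186 in controls (SD, n = 6 each), and Cdh9 was 2.32-fold lower in mutants (log2 change −1.22, SE 0.0904, adjusted p = 2.92e-06). Its neighbour Cdh10, also a type II cadherin, lies with no protein-coding gene between and had a log2 change of −0.34 (SE 0.107, adjusted p = 0.0646).

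Besides Cdh9, 3 further cadherins were lower. Cdh11, a type II cadherin studied mostly in mesenchyme and bone but also present in neurons, read 5.97, 6.07 and 6.60 in mutants after saline, against 6.57, 6.71 and 6.71 in controls after saline. The arrays given cocaine read 6.05, 5.74 and 6.19 in mutants, against 6.83, 7.07 and 6.48 in controls. Mutant replicate 3 after saline reached the control range, and the other mutant arrays lay below every control. Cdh11 was lower in mutants (log2 change −0.63, SE 0.125, adjusted p = 0.00673).

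Cdh4, or R-cadherin, a classical cadherin of axon growth, was dim. It read 3.58, 3.34 and 3.48 in mutants after saline, against 3.93, 4.21 and 4.15 in controls after saline. After cocaine it read 3.20, 3.65 and 3.05 in mutants, against 3.80, 3.89 and 4.12 in controls. All mutant arrays lay below all controls. The log2 change was −0.63 (SE 0.101, adjusted p = 0.00157), and most of these values lie at or under the floor of 4, where a fold depends on the background correction.

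Cdh8, a type II cadherin of striatal and cortical neurons, read 6.77, 6.56 and 7.02 in mutants after saline, against 6.71, 7.38 and 7.35 in controls after saline. Under cocaine the signals were 6.83, 6.39 and 6.39 in mutants, against 7.19, 7.02 and 7.16 in controls. Control replicate 1 after saline fell within the mutant range. Cdh8 was lower in mutants (log2 change −0.48, SE 0.127, adjusted p = 0.0332), a call that did not survive in 8 of 12 leave-one-array-out fits (adjusted p up to 0.118 over all alternatives).

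Among the cadherins that were not called, Cdh2 (N-cadherin), the broadly expressed neuronal cadherin, had a log2 change of −0.14, with a 95% interval of −0.33 to 0.05. Cdh22 had a log2 change of −0.08. The type II cadherins Cdh8, Cdh9, Cdh10, Cdh11 and Cdh22 had a negative change in 5 of 5 cases, with 3 of 5 called lower and a median of −0.48. Over all 6651 genes tested, 3659 had a negative change, 5.92% were called lower and the median was −0.02; the type II cadherins were not tested as a group. Cdh13, a cadherin held by a lipid anchor and without a cytoplasmic tail, had a log2 change of 0.25 (SE 0.0837, adjusted p = 0.0874) at its brighter probe set and was lower at its dimmer one (−0.43, adjusted p = 0.0242). The 2 probe sets disagree in direction, so no direction is given for Cdh13.

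**Figure D1:**
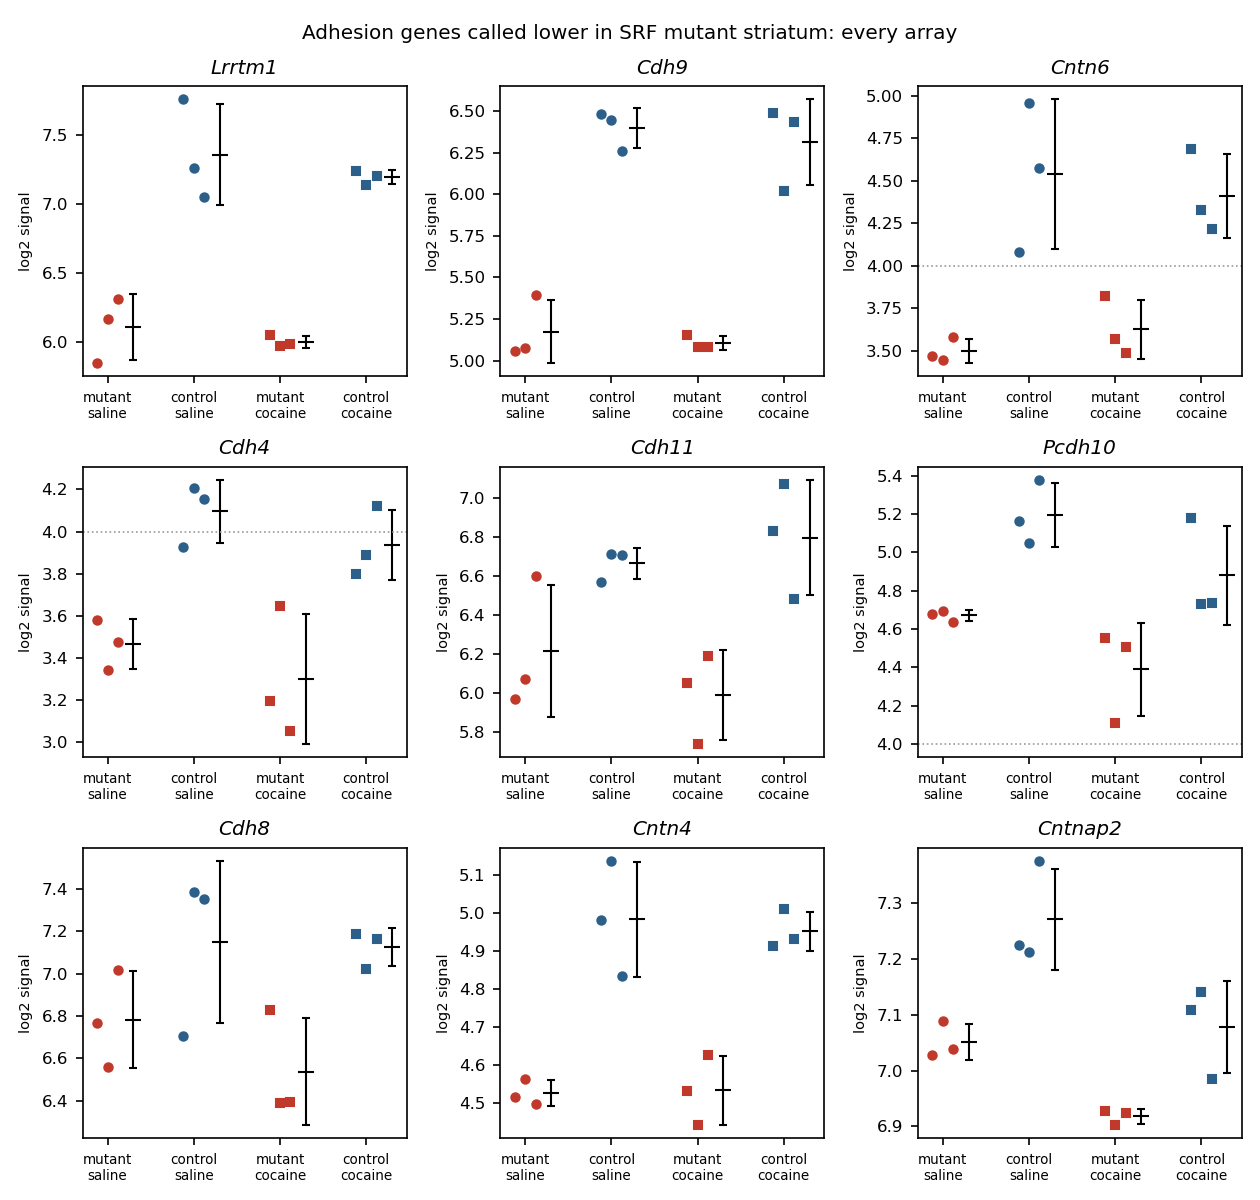
Log2 signal of the 9 genes called lower in mutants, with a point for every array, circles for saline and squares for cocaine, mutants in red and controls in blue, and bars giving the mean and SD of 3 arrays; the dotted line is the floor of 4 and the axes are cut to each gene's range. Lrrtm1, Cdh9, Cntn6, Cdh4, Pcdh10 and Cntn4 show mutant arrays below all control arrays, while Cdh11, Cdh8 and Cntnap2 overlap.

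Of the non-clustered protocadherins, Pcdh10 was called. It is a homophilic adhesion protein whose loss in mice alters axon growth through the striatum. It read 4.68, 4.69 and 4.64 in mutants after saline, against 5.17, 5.05 and 5.38 in controls after saline. The arrays given cocaine read 4.55, 4.11 and 4.51 in mutants, against 5.18, 4.73 and 4.73 in controls. The genotypes were separated by a narrow margin, with a highest mutant signal of 4.69 and a lowest control signal of 4.73. Pcdh10 was lower in mutants (log2 change −0.51, SE 0.100, adjusted p = 0.00637), and its dimmer probe set had a log2 change of −0.26 (adjusted p = 0.0756). Pcdh8 (arcadlin), an activity-regulated protocadherin of dendritic spines, ranged in signal over 5.30 to 6.03 in mutants and 4.96 to 5.93 in controls, and had a log2 change of 0.10 with an interval of −0.24 to 0.44.

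The clustered protocadherins give individual neurons combinations of adhesion proteins, and 3 of their 22 genes with a matching probe set passed the filter. Pcdhb9 had a log2 change of −0.27 (SE 0.0851, adjusted p = 0.0646), Pcdhb17 −0.02 and Pcdhb20 about 0 with an interval of −0.12 to 0.12. Of these 3, 0 were called by limma, and Pcdhb9 passed an unadjusted p under 0.05. A further 6 probe sets carry several symbols of the clustered alpha genes and were left out of the members. Of these, 3 were tested, with log2 changes of −0.17 to −0.09, and 0 were called by limma, with 1 at an unadjusted p under 0.05. The beta genes are close copies, so a probe set of one may bind transcripts of others.

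Neuroligin 2 (Nlgn2), which organises inhibitory synapses, had a log2 change of 0.13 (interval −0.02 to 0.29, adjusted p = 0.283). Lrrtm2, a relative of Lrrtm1 with the same kind of neurexin binding, had a log2 change of 0.03 (interval −0.13 to 0.19); its difference from Lrrtm1 was not tested. Slitrk1, a postsynaptic leucine-rich repeat protein, had a log2 change of −0.02 (interval −0.26 to 0.22).

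Of the 3 contactins that passed the filter, 2 were lower. Cntn6 and Cntn4, immunoglobulin proteins anchored by lipid and involved in axon guidance and wiring, are neighbours with 0 protein-coding genes between. Cntn6 read 3.47, 3.45 and 3.58 in mutants after saline, against 4.08, 4.96 and 4.58 in controls after saline. After cocaine it read 3.82, 3.57 and 3.48 in mutants, against 4.69, 4.33 and 4.21 in controls. No mutant array exceeded 4, and every control array did. The log2 change was −0.91 (SE 0.131, adjusted p = 0.000699).

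Cntn4 read 4.52, 4.56 and 4.50 in mutants after saline, against 4.98, 5.14 and 4.83 in controls after saline. Under cocaine the signals were 4.53, 4.44 and 4.63 in mutants, against 4.91, 5.01 and 4.93 in controls. The genotypes did not overlap, with a highest mutant signal of 4.63 and a lowest control signal of 4.83. The log2 change was −0.44 (SE 0.0615, adjusted p = 0.000577). Cntn1, a contactin present on myelinated axons, had a log2 change of −0.05 (interval −0.17 to 0.07). Its second probe set had a log2 change of −0.16 (adjusted p = 0.138).

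Cntnap2 read 7.03, 7.09 and 7.04 in mutants after saline, against 7.23, 7.21 and 7.37 in controls after saline. The arrays given cocaine read 6.93, 6.90 and 6.92 in mutants, against 7.11, 7.14 and 6.98 in controls. Within each injection the mutants lay below the controls, but across injections the genotypes overlapped, since the lowest control, 6.98 after cocaine, lay under the mutants given saline. The log2 change was −0.19 (SE 0.0528, adjusted p = 0.0397), a call that did not survive in 9 of 12 leave-one-array-out fits (adjusted p up to 0.0919 over all alternatives). Of its other probe sets, the next brightest was also lower (−0.51, adjusted p = 0.00553) and the dimmest was not called (−0.09). Ncam1 (−0.03) and L1cam (−0.12, adjusted p = 0.170), the immunoglobulin adhesion proteins of growing axons, were not called. Their dimmer probe sets differed in sign, at −0.09 and 0.07 for Ncam1 and 0.02 for L1cam, and were not called either.

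**Figure D2:**
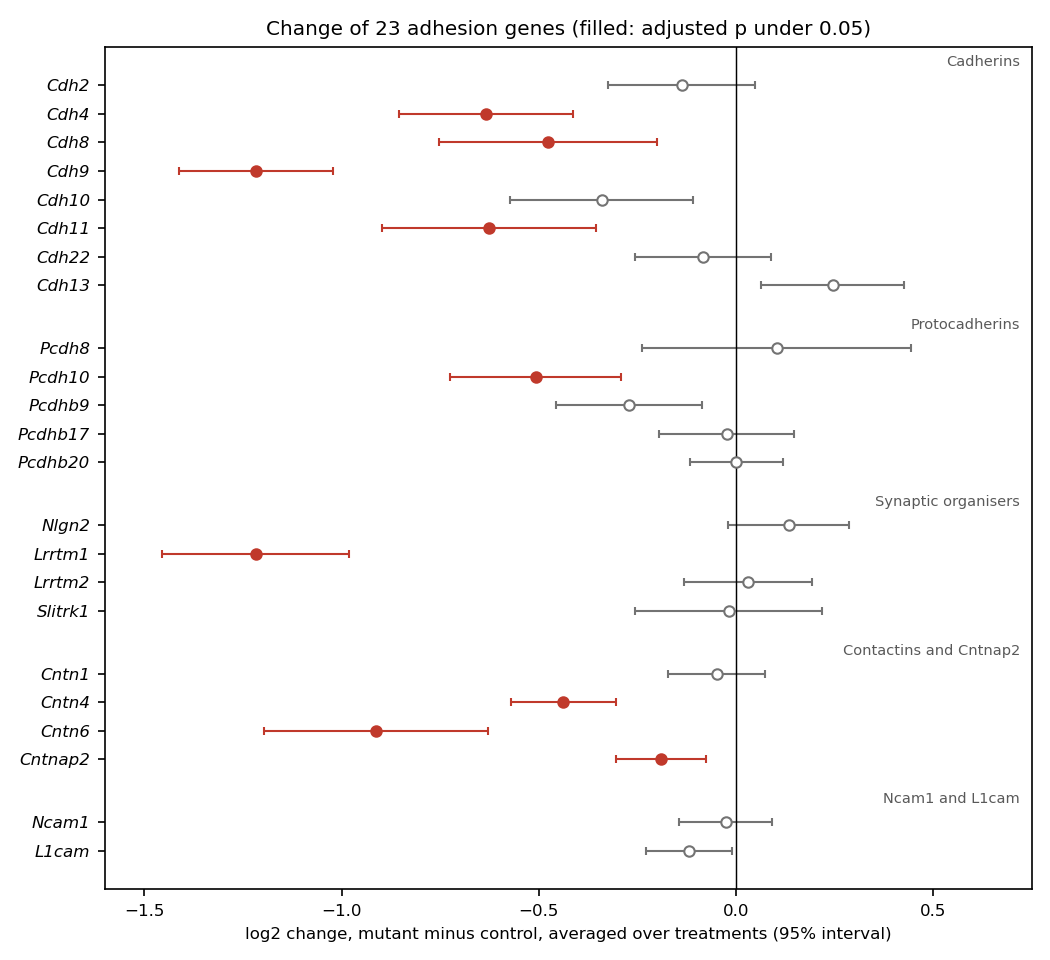
Log2 change, mutant minus control, averaged over both injections for the 23 genes grouped by family, with 95% intervals from limma; filled red points have an adjusted p under 0.05. The 9 filled points all lie left of 0, led by Lrrtm1 and Cdh9 at −1.22, and Cdh13 at 0.25 is the open point farthest to the right.

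**Figure D3:**
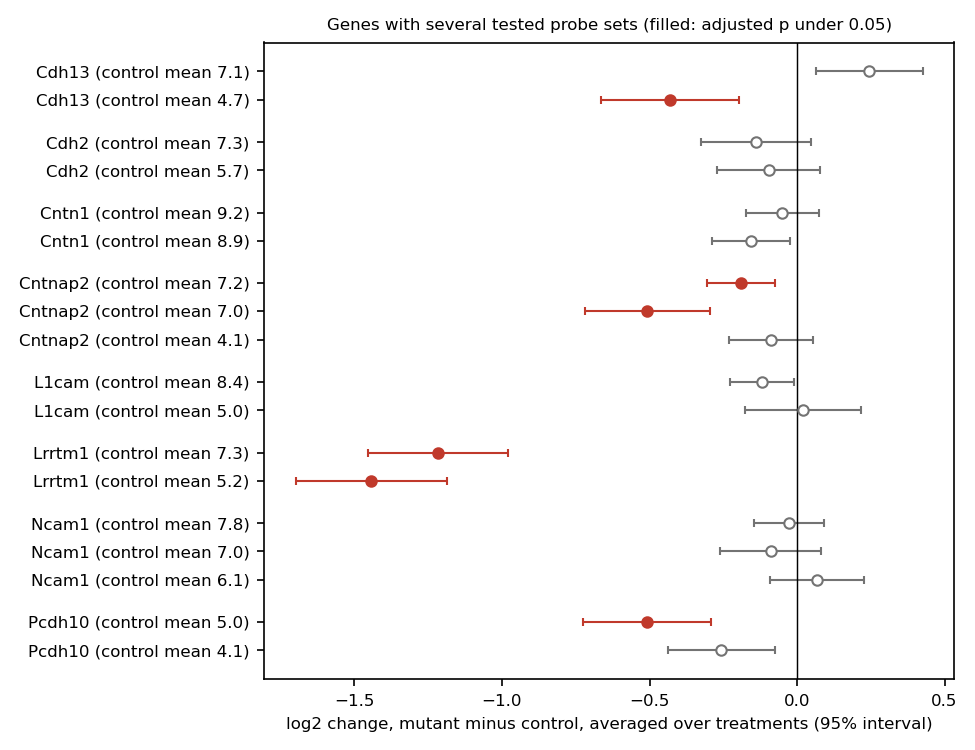
Log2 change, mutant minus control, for each tested probe set of the 8 genes with several, labelled by their mean control signal, with 95% intervals; filled points have an adjusted p under 0.05. Both Lrrtm1 probe sets lie far below 0, while those of Cdh13 lie on opposite sides of it.

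The genes that did not pass the filter were Cdh1, Cdh3, Cdh5, Cdh6, Cdh15, Cdh16, Cdh17, Cdh20 and Cdh23, 6 non-clustered protocadherins (Pcdh1, Pcdh7, Pcdh12, Pcdh15, Pcdh18 and Pcdh20), 19 Pcdhb genes, Nlgn1, Ntng1, Ntng2, Cntn2, Cntn3, Cntnap1, Cntnap4 and Ncam2. Of these 42 genes, 40 never exceeded a signal of 4, and the mean signals of the 42 ran from 1.87 to 3.56 with a median of 2.61. Just outside the threshold lay Ncam2 and Ntng1, each above 4 in 1 array. Ncam2 read 3.20 to 3.44 in mutants and 3.41 to 4.01 in controls, and the netrin-G gene Ntng1 read 2.74 to 3.32 in mutants and 3.34 to 4.05 in controls. Just inside lay Cdh4 and Cntn6.

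Each injection was also examined alone. After saline, 5 genes were lower in mutants (Cdh9, Lrrtm1, Cntn6, Cntn4 and Cdh4) and 0 were higher, where 3.43% of all genes tested were called and 1.91% were called lower. After cocaine, 6 genes were lower, the same 5 and Cdh11, and 0 were higher, where 4.75% of all genes tested were called and 2.2% were called lower. Without Cdh4 and Cntn6 the counts were 3 of 21 after saline and 4 of 21 after cocaine. The 2 comparisons share no arrays. Lrrtm1 changed by −1.25 after saline and −1.19 after cocaine, and Cdh9 by −1.22 and −1.21. Cdh11 changed by −0.80 (SE 0.177, adjusted p = 0.0221) after cocaine, a call that was also lost with no filter on dim probe sets (adjusted p = 0.0945, the highest over its alternatives). After saline its log2 change was −0.45 (adjusted p = 0.236), and its difference between the injections was not called. Over the 23 genes the changes of the 2 comparisons had a Pearson r of 0.939 (Spearman rho 0.895). Over all 6651 genes r was 0.646. Genes are not independent replicates, and the fit pools the spread over all arrays. The 23 include Cdh4 and Cntn6, which passed the filter only through the control arrays, where they were higher. No r was computed without them, so no conclusion is drawn from the 2 values of r. The sign was shared by 17 of the 23 genes, 14 of them lower, Cdh4 and Cntn6 included, and 3 higher in both. The share of all genes with a shared sign was not computed. The count after cocaine fell to 2 without mutant replicate 1 after cocaine, to 3 without mutant replicate 2 after cocaine and to 2 without control replicate 2 after cocaine. The count after saline was 3 in a fit restricted to its own arrays. Over the 12 fits that each omit an array, Cdh4 lost its call after saline in 5. After cocaine, Cntn6 lost its call in 5 of these fits, and Cdh4, Cntn4 and Cdh11 each lost theirs in 4.

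**Figure D4:**
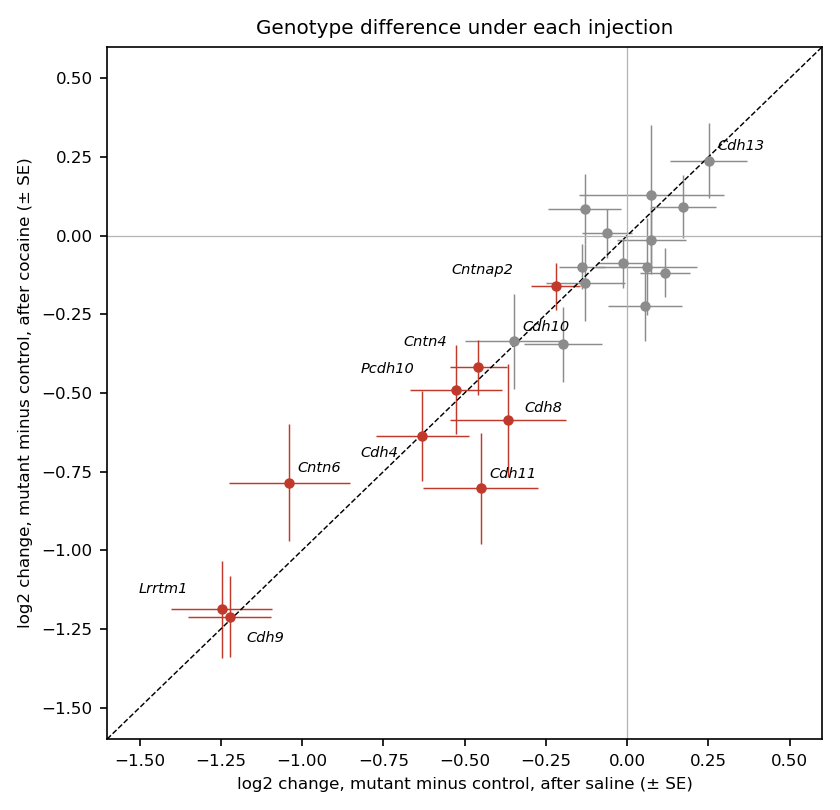
Log2 change, mutant minus control, after saline (x axis) against after cocaine (y axis) for the 23 genes, with bars of 1 SE, red where called in the averaged comparison, and a dashed line of equal change. Lrrtm1 and Cdh9 lie at the lower left with nearly equal values on both axes, and Cdh11 lies below the line.

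Cocaine was compared with saline within each genotype. In mutants 0 of 23 genes were called by limma, with 1 at an unadjusted p under 0.05. Of all 6651 genes tested, 2.14% were called and 713 passed an unadjusted p under 0.05. In controls 0 of the 23 were called, with 2 at an unadjusted p under 0.05. Of all genes tested in controls, 0.586% were called and 422 passed an unadjusted p under 0.05. Averaged over genotypes, 2.53% of all genes tested were called and 761 passed an unadjusted p under 0.05. Among the 23 genes 0 were called, with 2 at an unadjusted p under 0.05. These 2 were Pcdh10 (−0.30, interval −0.51 to −0.08, adjusted p = 0.206) and Cntnap2 (−0.16, interval −0.28 to −0.05, adjusted p = 0.178). The log2 response of Pcdh10 was −0.28 in mutants and −0.32 in controls. The activity-regulated Pcdh8 had a log2 change of −0.32 (interval −0.66 to 0.02, adjusted p = 0.481), the most negative value of the averaged response. For the difference of the responses, mutant minus control, 0.105% of all genes tested were called and 322 passed an unadjusted p under 0.05. Among the 23 genes this difference was called for 0, with 0 at an unadjusted p under 0.05. It ranged from −0.35 for Cdh11 to 0.25 for Cntn6, and the lowest adjusted p was 0.9996. With the mean of all probe sets of a gene, Pcdh10 was called lower in the averaged response.

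**Figure D5:**
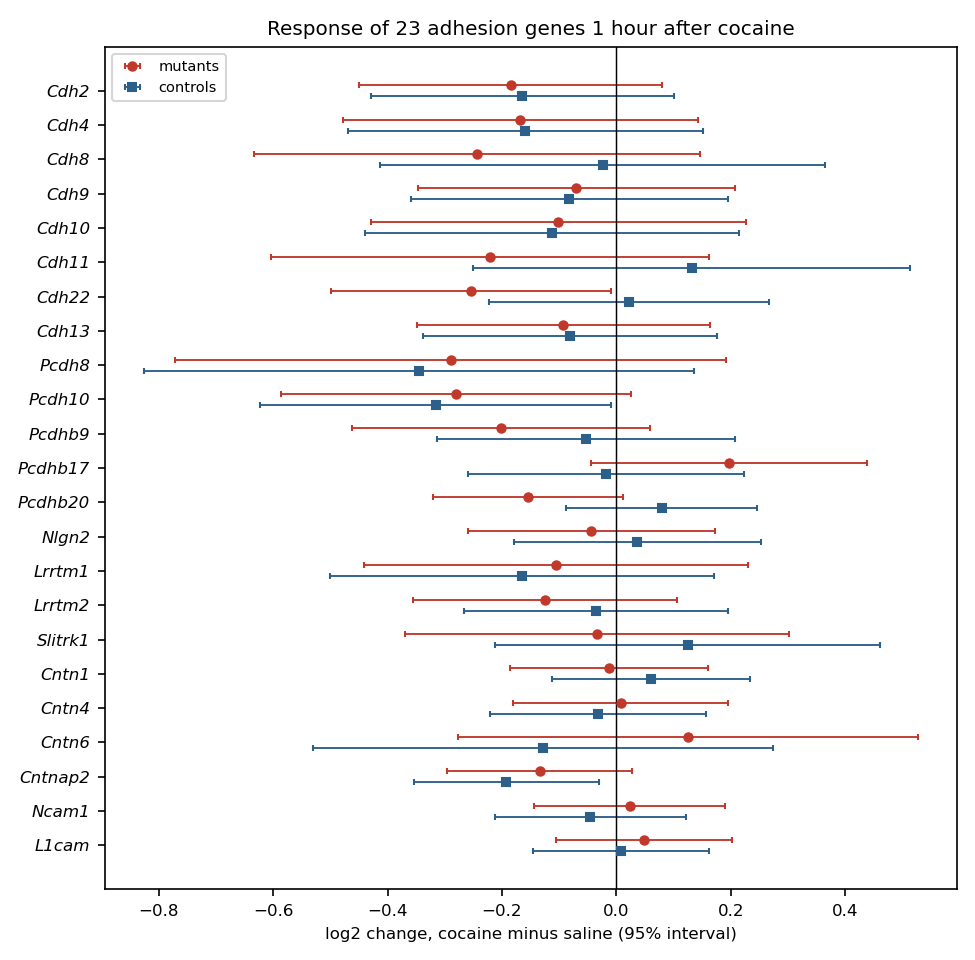
Log2 change, cocaine minus saline, for the 23 genes in mutants (red circles) and controls (blue squares), with 95% intervals from limma. Most intervals span 0 and the responses of mutants and controls overlap, with Pcdh8 and Pcdh10 farthest left in controls.

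Other genes of these adhesion systems were taken from 4 lists of binding partners and relatives. Of the 31 tested, 3 were lower and 1 was higher in mutants, so 4 were called, a share near the 10.7% of all genes tested. The median log2 change was −0.01, against −0.02 over all genes. Alcam, an immunoglobulin protein of axon bundling, was lower (−0.56, adjusted p = 0.000259), and so were the neurexin-binding calsyntenin Clstn2 (−0.32, adjusted p = 0.0241) and the receptor phosphatase Ptprf (−0.31, adjusted p = 0.0081). Ntm, a relative of Lsamp and Opcml, was higher (0.55, adjusted p = 0.000427). Of the 6 catenins and relatives tested, 0 were called by limma and 1 passed an unadjusted p under 0.05, with Ctnnb1 (beta-catenin) at −0.09 and Ctnna1 at −0.04.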

How the data were processed

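The samples were 12 striatal RNA samples on Affymetrix arrays of 1 colour, 3 in each of 4 groups. Every probe set has a single deposited log2 signal on an array, which the authors computed by GCRMA under R 2.4.1 (submitters' processing notes). The base of the logarithm, the options of GCRMA and the genome build were not given in the sources used here. Array minima of 1.26 to 1.29 and maxima of 13.0 to 13.1 are those of log2 output, and folds were taken as powers of 2. Medians of the arrays ranged over 3.75 to 3.78, so a shift common to all genes would no longer be visible. Values near a signal of 4 are compressed by GCRMA, and folds there depend on its background correction.

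Of 22690 probe sets, 64 controls were dropped, and the 11102 with a log2 signal above 4 in at least 3 of 12 arrays were tested. In the platform annotation 20393 carried 1 symbol, 691 several and 1606 none; 20364 Entrez identifiers matched the RefSeq gene table of GRCm38.p6 and 0 symbols were updated. That table served only for names and neighbours. Promoter windows came from the RefSeq promoter table of GRCm38.p6.

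limma 3.58.1 in R 4.3.3 fitted a mean for each of the 4 groups on all 12 arrays, with variances moderated by empirical Bayes (residual degrees of freedom 8, prior 4.71). P-values were two-sided and adjusted by Benjamini-Hochberg over the 11102 probe sets, and a call is an adjusted p under 0.05. Percentages of genes called count 1 probe set per gene, the brightest. Intervals are 95%, from limma's standard error (SE). The titles call the samples biological replicates, and the p-values measure the spread between them. Titles number replicates 1 to 3, but same-numbered samples did not deviate together (correlations of −0.145 to 0.116 over 18 pairs, against −0.101 to 0.160 over 36 pairs of different numbers), so the numbers were not used as a block. These numbers do not give the litter of an animal, and litter was not part of the fit. The genes and lists were chosen with earlier results of these data known.

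Named genes were Srf, every member called in any comparison, the brightest uncalled member of each family, members whose probe sets disagree and, after their values were seen, others where a count is spelled out. Alternatives were no filter, a floor of 5, trended and robust moderation, array weights, a replicate block, quantile normalisation, the mean of all probe sets of a gene, only the arrays of a comparison, and leaving out each array.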

Additional observations from a re-analysis of the deposited data

How the results depend on the processing

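For the averaged comparison, 9 genes were called, and between 7 and 9 when 1 array was left out. With the floor of 5, 6 of the 19 genes tested were called. With no filter, 10 of 65 were called, with Ncam2 and Ntng1 added and Cdh8 lost. Lrrtm1, Cdh9, Cdh11, Cdh4, Cntn4, Cntn6 and Pcdh10 kept their calls in every setting that tested them, and Cdh4, Cntn4 and Cntn6 were not tested under the floor of 5. After saline, 5 genes were called in the main setting, 3 with no filter, 2 with the floor of 5, 3 in a fit of only the arrays of the comparison, and 3 without the genes above the floor in control arrays only (chosen after seeing the data); leaving out 1 array gave 4 to 6. After cocaine, 6 were called, 3 with no filter and 3 with the floor of 5, and leaving out 1 array gave 2 to 7. For cocaine averaged over genotypes the count was 0, and 1 with the mean of all probe sets (Pcdh10); leaving out 1 array gave 0 to 0 for each cocaine comparison and for the difference of responses. With the replicate block 8 genes were called in the averaged comparison (Cntnap2 and Cdh8 were lost and Cdh13 was added as higher), 4 after saline, 5 after cocaine and 0 in each of the cocaine comparisons and the difference. Signs turned only for uncalled genes. Cdh13 read −0.093 with the mean of its probe sets, whose directions differ. With array weights Pcdhb17 read 0.022 and Slitrk1 0.060, and with quantile normalisation Pcdhb20 read 0.011. Leaving out 1 array gave −0.023 to 0.091 for Lrrtm2, −0.020 to 0.206 for Pcdh8, −0.071 to 0.030 for Pcdhb17, −0.024 to 0.028 for Pcdhb20 and −0.076 to 0.051 for Slitrk1. The cause of these shifts was not tested. The 3 arrays per group limit the precision, and signals under 4 limit the folds of Cdh4 and Cntn6. Mutant signals of Pcdh10 (4.11 to 4.69) and Cntn4 (4.44 to 4.63) lay near the floor of 4, where a fold also depends on the background correction.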
